A study of Caenorhabditis elegans with 12 samples.

Results

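Fatty acid desaturases put double bonds into fatty acids, and elongases lengthen the acyl chain. The genes described here are the 7 desaturases *fat-1* to *fat-7* and the elongases *elo-1*, *elo-2* and *elo-5* of *C. elegans*, 10 of the 46904 genes with expression values, taken by their gene names. The worm makes its own polyunsaturated fatty acids (PUFAs). Palmitic acid is desaturated by FAT-5 or lengthened by ELO-2 to stearic acid, which FAT-6 and FAT-7 turn into oleic acid. FAT-2 makes linoleic acid from it, and FAT-1, FAT-3, FAT-4 and ELO-1 carry the chain on to the long PUFAs. ELO-5 works on a separate branch, the monomethyl branched-chain fatty acids.

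The libraries came from whole worms, 3 in each of 4 groups, and every sample was a pool of at least 500 worms. N2, the wild type, was fed HT115 bacteria with empty vector (EV) or with *rpia-1* RNAi from day 0 of adulthood (N2 *rpia-1* (RNAi) Day 0). TU3401 carries the transgene uIs69, made of pCFJ90 (the marker *myo-2p*::mCherry) and of *unc-119p*::*sid-1*, in which a neuronal promoter drives the double-stranded RNA channel SID-1 so that feeding RNAi acts strongly in neurons, and was fed EV or *rpia-1* RNAi for the whole life (TU3401 *rpia-1* (RNAi) WL). The labels give day 5 of adulthood for both N2 groups and day 0 for both TU3401 groups, and the column names of the deposited table mark the TU3401 libraries as L4, the last larval stage, whereas the methods of the study give day 5 as the harvest. The titles call the TU3401 knockdown embryonic. Strain, onset of feeding and labelled age therefore differ together between N2 and TU3401 and cannot be told apart. The methods describe the 3 samples of a group as collected independently, without saying what was separate, so p-values measure the spread between these samples, which may in part be technical.

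Levels are given as TPM, the authors' measure of a gene's reads per length and per library, so that genes can be compared with each other. No read counts entered the comparisons, and the depth of each library is unknown. The TPM of a library summed to between 1025899 and 1036143. N2 *rpia-1* (RNAi) Day 0 replicate 1 stood apart, with 22388 genes above 0 TPM against 17777 to 19135 in the other 5 N2 libraries. The target *rpia-1* was at 128, 115 and 120 TPM in N2 EV against 27.5, 32.8 and 30.2 TPM with the N2 knockdown. In TU3401 it was at 107, 107 and 115 TPM with EV and 82.0, 88.5 and 106 TPM with the knockdown, values of all tissues together. Intestine markers (9 of 10 in the table) summed to 202 ± 5.67 TPM (SD, n = 3) in N2 EV against 6045 ± 163 TPM (SD, n = 3) in TU3401 EV. Most of the TU3401 EV sum came from *asp-1* (3388 TPM) and *act-5* (1876 TPM). Without them the sums were 81.4 ± 9.96 TPM in N2 EV and 782 ± 74.6 TPM in TU3401 EV (SD, n = 3). Germline markers (10 of 10) summed to 6691 ± 243 and 3229 ± 396 TPM, and hypodermis markers (8 of 8) to 222 ± 13.9 and 313 ± 25.5 TPM (SD, n = 3 each). The hypodermis markers did not move as one, with 5 higher and 3 lower in TU3401 EV. Among them *dpy-5* was at 0.475 and 153 TPM and *lin-26* at 151 and 71.7 TPM. In bulk RNA, fewer cells of a type and less RNA per cell cannot be told apart.

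Of the members, 8 lie on chromosome IV of WBcel235 and 2 on chromosome V, and all 10 are annotated as protein coding. The neighbours *fat-4* (IV, 9799429 to 9802226) and *fat-3* (IV, 9803023 to 9806119) lie on the same strand with 796 bp between them. *fat-1* (IV, 13315644 to 13318811) and *fat-2* (IV, 13323873 to 13326395) share a strand with 5061 bp between them. *elo-5* (IV, 5374616 to 5377117) lies 9511 bp from another elongase, *elo-6*, and *elo-1* (IV, 9526366 to 9528336) lies 1610 bp from *elo-7*. The close paralogs *fat-6* (IV, 11913692 to 11915687) and *fat-7* (V, 7151353 to 7153146) are on different chromosomes. How reads common to them were assigned is not given, so a small share of *fat-7* signal that comes from *fat-6* cannot be told apart from *fat-7* RNA. *fat-5* (V, 17725004 to 17726818) overlaps the gene *twk-42* on the other strand over 28 bp, and *elo-5* overlaps *F41H10.3* on the other strand over 162 bp. Whether the counting used strand is not given.

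In N2 EV worms, 3 enzymes of the PUFA branch had the highest levels. *fat-2*, which makes linoleic acid, was at 485 ± 44.3 TPM, *elo-1* at 342 ± 16.8 TPM and the omega-3 desaturase *fat-1* at 311 ± 8.81 TPM (SD, n = 3 each). *fat-6* followed at 180 ± 4.11 TPM, *fat-4* at 119 ± 2.55 TPM and *fat-5* at 90.1 ± 14.0 TPM (SD, n = 3 each). The ranges of *elo-5* and *fat-3* overlapped at 56.3 ± 3.26 and 54.2 ± 5.48 TPM, and all other neighbours in this order had ranges that did not overlap. *elo-2* was at 34.0 ± 2.49 TPM and *fat-7* came last at 1.23 ± 0.167 TPM (SD, n = 3 each). The order was different in TU3401 EV. There *elo-1*, *elo-5*, *fat-6* and *fat-2* had means of 543, 497, 470 and 454 TPM with each range overlapping the next, and *fat-5* was last at 14.3 TPM. The 10 genes together held 0.162% ± 0.00652 of the summed TPM in N2 EV and 0.275% ± 0.0309 in TU3401 EV (SD, n = 3).

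**Figure D1:**
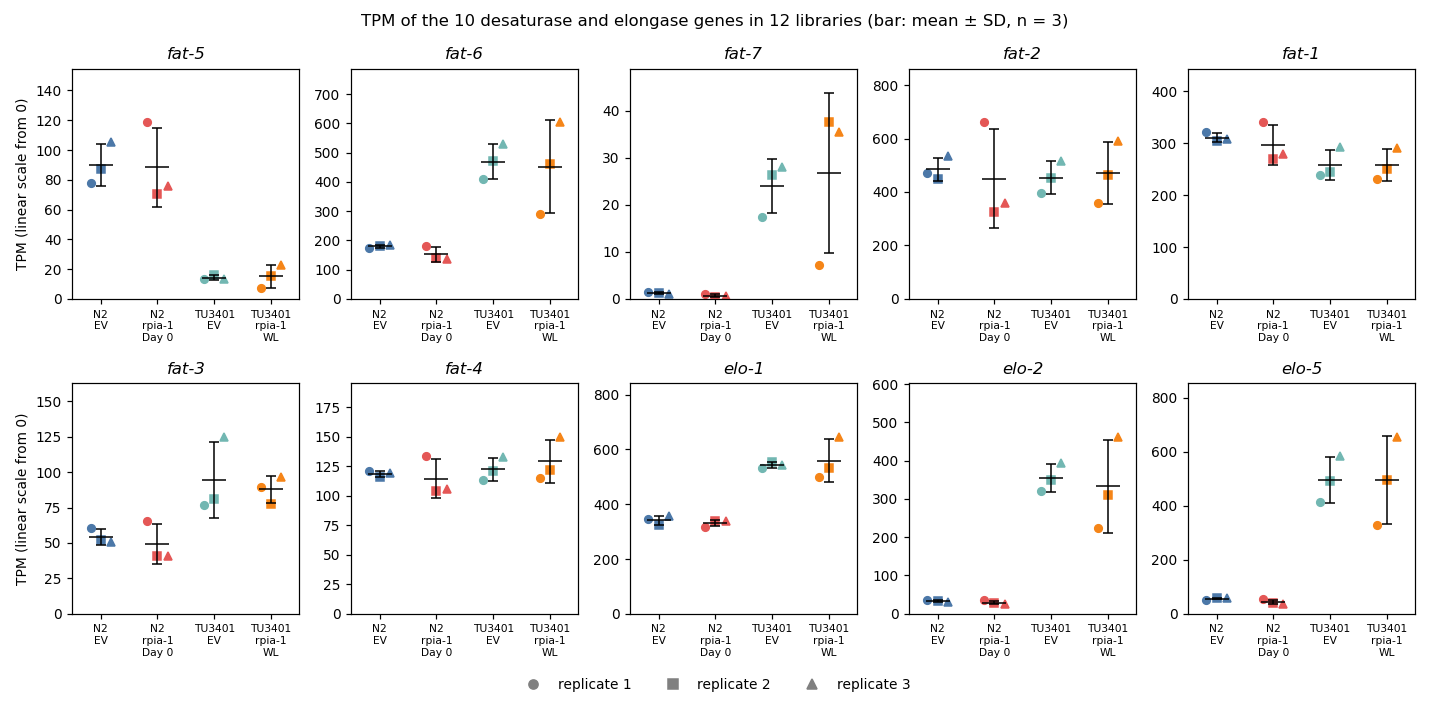
TPM of each of the 10 genes (linear axis from 0) in the 4 groups, with 1 symbol per library (circle, square and triangle for replicates 1, 2 and 3) and a bar at the mean ± SD (n = 3). *fat-5* stands at 70.4 TPM or more in each N2 library and at 23.1 TPM or less in each TU3401 library, and *elo-2* and *elo-5* show the opposite pattern.

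Far more genes passed the test between the control groups, TU3401 EV against N2 EV, than in either knockdown. Each member was tested by limma on log2(TPM + 1), with p-values adjusted by Benjamini-Hochberg over all 13348 genes that averaged 1 TPM or more. By this test 6 members were higher and 2 lower in TU3401 EV, against a background in which 88.8% of all genes passed, 45.4% higher and 43.4% lower. The share of members that passed, 8 of 10, was thus no higher than that of all genes. The median member was 0.71 higher on the log2 scale and the median gene 0.06 higher. The 5 members *fat-5*, *fat-6*, *fat-7*, *elo-2* and *elo-5* were at least 2-fold apart in mean TPM, as were 59.9% of all genes of at least 1 TPM. The groups did not overlap for 8 members, 6 higher and 2 lower, and for 45.5% and 44.1% of all genes tested in these directions. Scaling by the median of ratios, which sets the typical abundant gene equal, raised the median of all genes by 0.54 (log2) and moved the calls over all genes from 6061 higher and 5798 lower to 7666 higher (56.4%) and 3969 lower (29.2%).

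The 3 desaturases that start the pathway moved in different directions. *fat-5*, the palmitoyl-CoA desaturase, was at 77.9, 87.0 and 105 TPM in N2 EV and at 13.1, 16.1 and 13.6 TPM in TU3401 EV. No TU3401 EV library came near an N2 EV library, and the mean was 6.32-fold lower (log2 fold change −2.57, SE 0.13, adjusted p = 1.1e-07 from limma). *fat-6*, the main stearoyl-CoA desaturase gene by level, was at 175, 181 and 183 TPM in N2 EV and at 410, 471 and 529 TPM in TU3401 EV. Every TU3401 EV library was higher, by 1.37 on the log2 scale (SE 0.09, adjusted p = 6.2e-07 from limma). The second stearoyl-CoA desaturase gene, *fat-7*, was at 1.41, 1.19 and 1.09 TPM in N2 EV and at 17.5, 26.4 and 28.1 TPM in TU3401 EV. This was a 19.5-fold higher mean (log2 fold change 3.46, SE 0.18, adjusted p = 1.6e-07 from limma). As a ratio of mean TPM it was the largest among the 10 members, but it rests on N2 values near 1 TPM. With a pseudocount of 0.1 its log2 fold change was 4.16 and with 5 it was 2.20, against 3.38 and 3.20 for *elo-2*, so which of the pair came first depends on the scale. After scaling by the median of ratios the values were −2.04 for *fat-5*, 1.92 for *fat-6* and 3.87 for *fat-7*, with the same directions. In the same samples 9 of 9 intestine markers were higher under both scalings, while 9 of 10 germline markers were lower by TPM and 7, with 2 higher, after that scaling. The part of either in these differences was not tested.

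The summed TPM of *fat-5*, *fat-6* and *fat-7* was 271 ± 17.6 in N2 EV and 508 ± 65.0 in TU3401 EV (SD, n = 3), and its make-up differed. *fat-5* made up 30.6%, 32.3% and 36.4% of the sum in N2 EV and 2.97%, 3.13% and 2.38% in TU3401 EV. *fat-6* held 66.4% ± 2.89 of the sum in N2 EV against 92.5% ± 0.686 in TU3401 EV, and *fat-7* held 0.458% ± 0.0911 and 4.68% ± 0.621 (SD, n = 3). The 3 shares sum to 100% in a library, so they are not independent, and shares within a library do not depend on the scaling between libraries. With the knockdown, *fat-5* held 33.4% to 39.6% in N2 *rpia-1* (RNAi) Day 0 and 2.51% to 3.47% in TU3401 *rpia-1* (RNAi) WL, ranges that overlap those of the EV groups. *fat-7* held 0.341%, 0.197% and 0.286% in the N2 knockdown against 0.556%, 0.443% and 0.376% in N2 EV, without overlap, a difference that was not tested. These shares rest on *fat-7* values of only 0.415 to 1.415 TPM. In the TU3401 knockdown it held 2.34%, 7.32% and 5.34%, on both sides of the EV range of 3.98% to 5.14%.

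**Figure D2:**
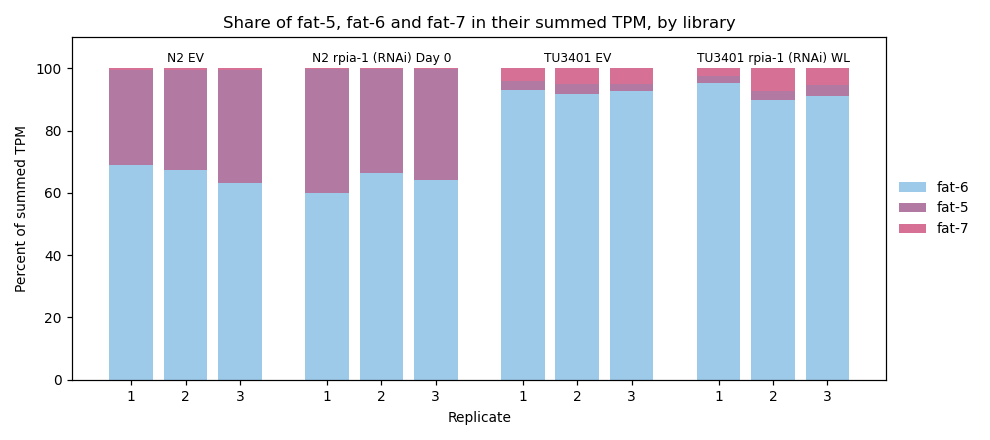
Percent of the summed TPM of *fat-5*, *fat-6* and *fat-7* that each gene held (vertical axis), 1 stacked bar per library, by group and replicate. *fat-5* holds 30.6% or more in all 6 N2 libraries and 3.47% or less in all 6 TU3401 libraries.

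The PUFA desaturases differed less. *fat-3*, a front-end desaturase acting on linoleic and alpha-linolenic acid, was at 60.5, 51.8 and 50.4 TPM in N2 EV and at 76.7, 80.8 and 125 TPM in TU3401 EV. Its groups did not overlap (log2 fold change 0.75, SE 0.17, adjusted p = 0.0022 from limma), with TU3401 EV replicate 3 well above the other libraries. *fat-1*, which turns omega-6 into omega-3 fatty acids, was at 321, 305 and 308 TPM in N2 EV and at 239, 246 and 292 TPM in TU3401 EV. It was lower by TPM (log2 fold change −0.27, SE 0.08, adjusted p = 0.013 from limma) but higher, at 0.28, after scaling by the median of ratios, so its direction depends on the scaling. The call of *fat-1* was also lost without TU3401 EV replicate 1 (adjusted p = 0.058 from limma). *fat-2* had a log2 fold change of −0.10 (95% interval −0.34 to 0.14, adjusted p = 0.39 from limma) and 0.45 after that scaling. *fat-4*, the front-end desaturase that makes arachidonic and eicosapentaenoic acid, had a log2 fold change of 0.04 (95% interval −0.13 to 0.21, adjusted p = 0.59 from limma) and 0.59 after that scaling. Both passed the test only with the scaled values. The summed TPM of *fat-1* to *fat-4* was 968 ± 45.1 in N2 EV and 930 ± 124 in TU3401 EV (SD, n = 3).

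All 3 elongases were higher in TU3401 EV, by very different amounts. *elo-1*, which lengthens the PUFAs with 18 carbons, was at 346, 323 and 356 TPM in N2 EV and at 533, 554 and 543 TPM in TU3401 EV (log2 fold change 0.67, SE 0.06, adjusted p = 5.6e-06 from limma). *elo-2*, the palmitic acid elongase, was at 36.8, 33.4 and 32.0 TPM in N2 EV and at 320, 350 and 394 TPM in TU3401 EV. Its mean was 10.4-fold higher (log2 fold change 3.34, SE 0.09, adjusted p = 3.8e-09 from limma). *elo-5* was at 52.5, 58.2 and 58.2 TPM in N2 EV and at 415, 491 and 585 TPM in TU3401 EV. Here the mean was 8.83-fold higher (log2 fold change 3.11, SE 0.12, adjusted p = 2.1e-08 from limma). Against *elo-1* in the same library, *elo-2* stood at 9.98% ± 0.877 in N2 EV against 65.4% ± 6.53 in TU3401 EV, and *elo-5* at 16.5% ± 1.42 and 91.4% ± 15.1 (SD, n = 3). All 9 intestine markers in the table were also higher in TU3401 EV, with a median log2 fold change of 3.75. They ran from 0.54 for the esterase *ges-1* to 5.86 for the actin *act-5*. Of the 10 members, 7 had a positive log2 fold change by TPM and 3 a negative one, down to −2.57 for *fat-5*. The part of the markers in the elongase values was not tested.

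**Figure D3:**
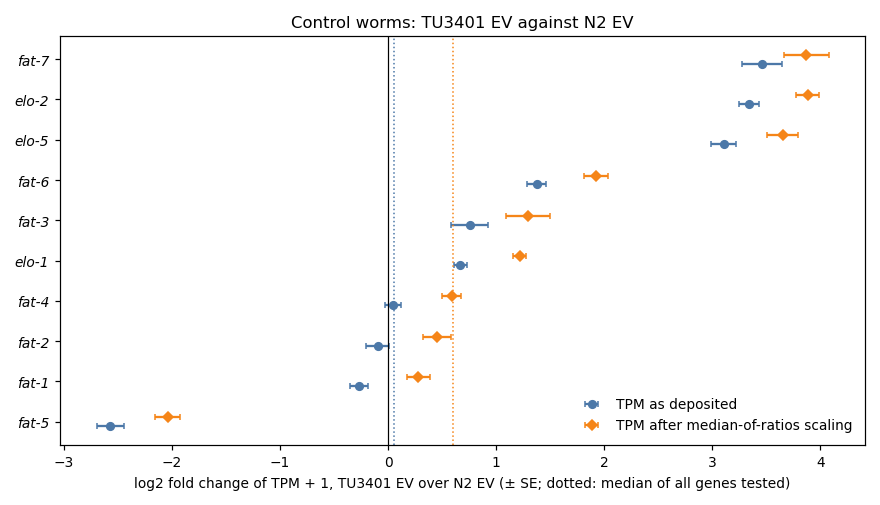
Log2 fold change of TPM + 1 in TU3401 EV over N2 EV (horizontal axis, ± SE) for the 10 genes, from TPM as deposited (circles) and after scaling by the median of ratios (diamonds), with dotted lines at the median of all genes tested. *fat-7*, *elo-2* and *elo-5* lie above 3, *fat-5* lies below −2, and *fat-1* and *fat-2* change sign with the scaling.

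Genes around the pathway were described as lists. Their counts stand against the shares of all genes given above for TPM (45.4% higher, 43.4% lower) and for median-of-ratios scaling (56.4% and 29.2%), and against 41.8% higher and 34.2% lower with FPKM. Of the 6 other elongases, 5 were higher in TU3401 EV by limma, 0 lower, with a list median of 2.73 (log2), and after median-of-ratios scaling all 6 were higher. The 5 included *elo-6*, which works beside *elo-5* on branched-chain fatty acids, at 63.1 ± 2.27 TPM in N2 EV against 548 ± 65.8 TPM in TU3401 EV (SD, n = 3, log2 fold change 3.09, adjusted p = 5.0e-09 from limma). *elo-9* was at 1.07 ± 0.224 and 20.0 ± 2.61 TPM, and *elo-3* at 149 ± 8.50 and 148 ± 6.50 TPM (SD, n = 3, log2 fold change −0.01, adjusted p = 0.86 from limma, and 0.53 after that scaling). Of 6 genes that supply primers for branched-chain fatty acids, 4 were higher and 0 lower by TPM, 6 after that scaling and 3 with FPKM. Among them were the branched-chain aminotransferase *bcat-1* (22.2 ± 0.809 and 168 ± 10.7 TPM, SD, n = 3) and the acyl-CoA synthetase *acs-1* (38.4 ± 2.32 and 110 ± 10.4 TPM, SD, n = 3). Of 9 genes of fatty acid synthesis and electron supply, 6 were higher (8 after that scaling) and 1, the ATP citrate lyase *acly-2*, was lower under both (244 ± 7.79 and 73.3 ± 8.86 TPM, SD, n = 3). The acetyl-CoA carboxylase *pod-2* was at 73.4 ± 4.29 and 160 ± 21.3 TPM, and the fatty acid synthase *fasn-1* at 20.8 ± 10.5 and 31.5 ± 0.909 TPM (SD, n = 3). *fasn-1* was among the 6 by TPM, but its groups overlapped. It was at 14.65, 14.81 and 32.84 TPM in N2 EV and at 31.4, 32.48 and 30.67 TPM in TU3401 EV.

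Known regulators of these genes did not move as one. Of 10, 2 were higher and 7 lower in TU3401 EV by limma, and 3 were higher and 5 lower after median-of-ratios scaling. The nuclear receptor *nhr-80*, which acts on the stearoyl-CoA desaturases, was at 2.62 ± 0.279 TPM in N2 EV against 12.6 ± 1.40 TPM in TU3401 EV. *sbp-1*, the worm SREBP, was at 9.62 ± 1.35 and 18.5 ± 0.588 TPM. Lower under both were the nuclear receptor *nhr-49* at 123 ± 3.22 and 68.5 ± 4.37 TPM and *scp-1*, the SREBP cleavage-activating protein, at 43.1 ± 1.25 and 15.4 ± 1.08 TPM (SD, n = 3 in each group). The mediator subunit *mdt-15* had a log2 fold change of −0.12 by TPM (adjusted p = 0.22 from limma) and 0.42 after that scaling. Of 5 genes of PUFA oxygenation with enough signal, 4 were higher by TPM, with the P450 *cyp-33E1* first (log2 fold change 1.07, adjusted p = 7.3e-05 from limma), and 1 was lower, the P450 reductase *emb-8* with a log2 fold change of −0.29 (adjusted p = 0.0030 from limma), which turned to 0.26 after that scaling. With FPKM 2 of the 5 were higher and 0 lower, beside 41.8% and 34.2% of all genes.

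Adult-onset knockdown of *rpia-1* in N2, the comparison asking what partial reduction of this ribose-5-phosphate isomerase RNA changes, moved no member past the test. By limma 0 of the 9 members tested passed an adjusted p under 0.05, against 0.00941% of all 10626 genes tested, which is the target alone. At an unadjusted p under 0.05, 1 member passed (*elo-5*), as did 176 genes in all (1.66%). All 9 members had a negative log2 fold change, with a median of −0.17, and the median gene was at 0.00 with 50.9% of genes negative. No member with 1 TPM or more was 2-fold apart in mean TPM, against 2.02% of such genes, and none lay above all EV libraries in all 3 knockdown libraries (1.96% of genes tested).

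The values by library show where this tilt lay. *fat-6* was at 175, 181 and 183 TPM in N2 EV against 181, 140 and 136 TPM on RNAi (log2 fold change −0.25, 95% interval −0.50 to 0.00, adjusted p = 1.00 from limma). *elo-5* was at 52.5, 58.2 and 58.2 TPM on EV against 53.0, 41.0 and 35.9 TPM on RNAi (log2 fold change −0.39, 95% interval −0.71 to −0.06, adjusted p = 1.00 from limma). *fat-2* was at 470, 449 and 534 TPM on EV against 663, 327 and 358 TPM on RNAi. In all of these, replicates 2 and 3 of the knockdown lay under the lowest EV library and replicate 1 did not. In that replicate, 5 members (*fat-1* to *fat-5*) lay above the highest EV library, with *fat-2* at 663 TPM and *fat-5* at 119 TPM. Another 2 lay below the lowest EV library, *elo-1* at 318 TPM and *fat-7* at 1.03 TPM. The share of all genes outside the EV range in that replicate was not counted. Below the EV mean (log2) lay 3 of 10 members and 46.65% of all genes tested.

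The same pattern held for most members. It was read from the members' own values, so its counts only describe them. Replicates 2 and 3 both lay below the lowest N2 EV library for 9 of the 10 members, all but *elo-1*, and for 15.4% of all genes tested. The genes tested do not include *fat-7*. Replicate 1 lay above both of them for the same 9 members and for 50.3% of genes. The median member was 0.09 above the N2 EV mean in replicate 1 (log2), and 0.35 and 0.39 below it in replicates 2 and 3. *elo-1* hardly varied, at 346, 323 and 356 TPM on EV against 318, 337 and 339 TPM on RNAi (95% interval of its log2 fold change −0.17 to 0.08). Without replicate 1 of the knockdown, 33 of 10293 genes passed in limma (0.321%), all lower, and *fat-6* was among them (log2 fold change −0.38, SE 0.04, adjusted p = 0.033). *elo-5* then had −0.54 (adjusted p = 0.065) and *fat-2* −0.50 (adjusted p = 0.082), still short of the threshold. This selection leaves out the library that stood apart in number of detected genes, and the call of *fat-6* rests on that choice.

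**Figure D4:**
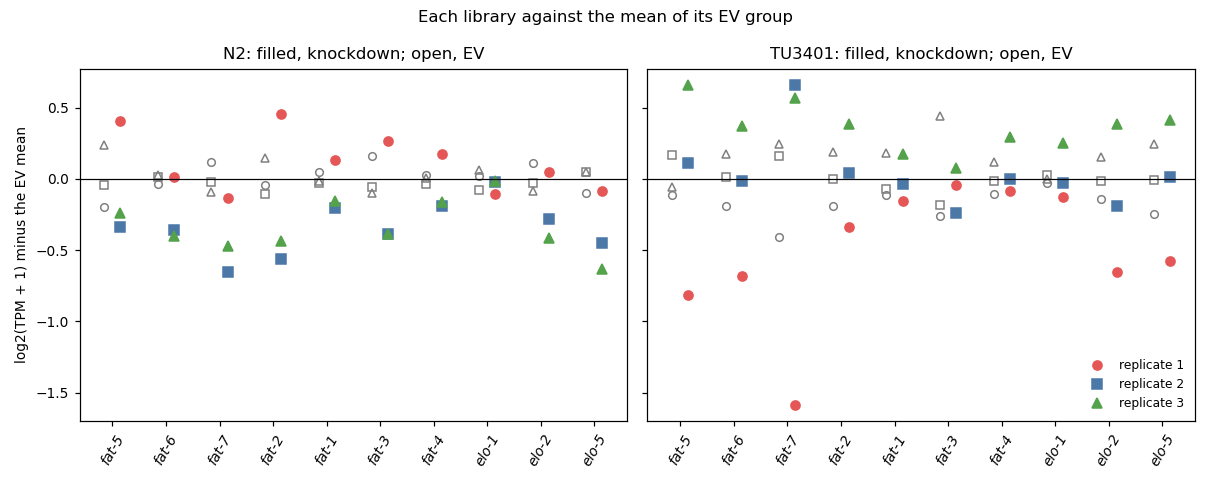
Each library's log2(TPM + 1) minus the mean of its EV group (vertical axis) for the 10 genes, knockdown libraries filled and EV libraries open, N2 on the left and TU3401 on the right, with circles, squares and triangles for replicates 1, 2 and 3. In N2 the knockdown replicates 2 and 3 lie below the EV libraries for 9 genes, and in TU3401 the knockdown replicate 1 is the lowest of 6 for 8 genes.

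*fat-7* was too low in N2 for the test. It was at 1.41, 1.19 and 1.09 TPM on EV against 1.03, 0.415 and 0.606 TPM on RNAi. The knockdown libraries all lay lower, as for 3.15% of all genes tested, and the ratio of means was 0.554, from values near 1 TPM where the depth in reads is unknown. Other genes moved with the N2 libraries too. All 9 intestine markers had a negative log2 fold change with a median of −0.32, and their sum was 200, 209 and 198 TPM on EV against 187, 141 and 138 TPM on RNAi, so it was lowest in the libraries in which the members were lowest. In replicate 1 of the knockdown, *fasn-1* was at 63.4 TPM against 13.1 to 32.8 TPM in the other N2 libraries, and germline markers summed to 5803 TPM against 6466 to 7022 TPM. Hypodermis markers summed to 226, 197 and 222 TPM on RNAi against 208 to 236 TPM on EV, mostly *lin-26* and *nhr-23*. Lower markers varied more. On RNAi *nhr-25* was at 12.9, 2.01 and 1.99 TPM (2.07 to 5.47 TPM on EV). *dpy-7* was at 9.40, 0.564 and 1.24 TPM (1.14 to 6.07 TPM on EV). *elt-3* was at 5.34, 1.85 and 2.51 TPM (1.89 to 3.72 TPM on EV). *grh-1* was at 1.93, 0.77 and 1.65 TPM on RNAi, and *dpy-5* and *rol-6* were under 1 TPM. The part of these values in the members' values was not tested.

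The whole-life neuronal knockdown in TU3401 moved no member past the test either. By limma 0 of 10 members passed, as did 0 of 13921 genes (0.0%), and at an unadjusted p under 0.05 there were 0 members and 164 genes (1.18%). The target *rpia-1* was thus not called either, at 107, 107 and 115 TPM on EV against 82.0, 88.5 and 106 TPM on RNAi. In whole-worm RNA the test did not detect the knockdown itself, which limits what the result says about the members. The log2 fold changes of the members ran from −0.15 to 0.07, 3 positive and 7 negative, with a median of −0.03 against 0.00 for all genes. By mean TPM, *fat-7* (1.11-fold) and *fat-5* (1.08-fold) were instead higher with the knockdown, so their sign depends on the scale. None was 2-fold apart (0.797% of genes), and the groups overlapped for all 10, while 2.03% of genes were lower and 1.36% higher without overlap. Levels of the members in neurons alone were not measured, since the RNA came from whole worms.

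Spread between the TU3401 knockdown libraries was wide. *fat-6* was at 410, 471 and 529 TPM on EV against 290, 462 and 606 TPM on RNAi (log2 fold change −0.11, 95% interval −0.64 to 0.42). *elo-2* was at 320, 350 and 394 TPM on EV against 225, 310 and 463 TPM on RNAi (log2 fold change −0.15, 95% interval −0.67 to 0.36). *fat-7* was at 17.5, 26.4 and 28.1 TPM on EV against 7.15, 37.7 and 35.4 TPM on RNAi (log2 fold change −0.12, 95% interval −1.32 to 1.08). The knockdown libraries lay on both sides of the EV libraries in each case, so that the means hardly differed while the intervals were wide. Intervals were narrower for *fat-1* (−0.28 to 0.27) and *elo-1* (−0.22 to 0.29).

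The spread ran through the family. Replicate 1 of the TU3401 knockdown was the lowest of the 6 libraries for 8 of 10 members (11.5% of all genes) and replicate 3 the highest for 7 (22.7% of genes). Both held for 6 members, *fat-5*, *fat-6*, *fat-2*, *elo-1*, *elo-2* and *elo-5*, and for 4.98% of genes. These patterns too were read from the members' own values, so the counts only describe them. Summed over the 10 members, the TPM was 2534, 2807 and 3158 with EV and 2152, 2769 and 3560 with the knockdown. Leaving out knockdown replicate 1 turned *fat-6* to 0.18 and *fat-7* to 0.61 (log2), neither passing the test. Hypodermis markers, by contrast, summed to the highest value in replicate 1, at 417 TPM, with 216 and 283 TPM in replicates 2 and 3 and 295 to 342 TPM with EV. Within them the cuticle collagen *dpy-5* was at 226, 60.9 and 122 TPM on RNAi against 145, 126 and 188 TPM on EV. The intestine marker sum was 5931, 5382 and 6357 TPM with the knockdown and did not follow the members' order. The part of these markers in the members' spread was not tested.

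**Figure D5:**
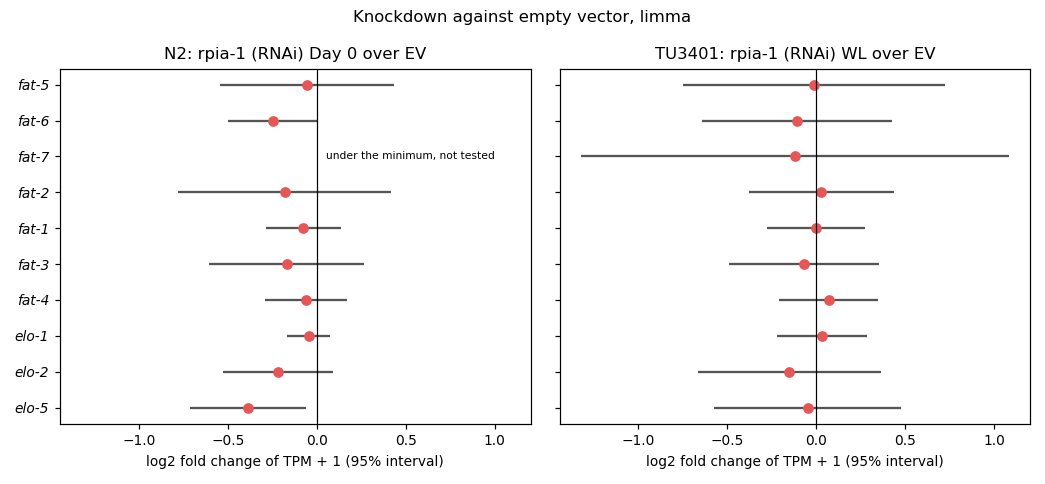
Log2 fold change of TPM + 1 of knockdown over EV with its 95% interval from limma (horizontal axis) for the 10 genes, N2 on the left and TU3401 on the right. The N2 interval of *elo-5* (−0.71 to −0.06) lies below 0 before adjustment, the other intervals reach 0 or cross it, and *fat-7* was not tested in N2.

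Whether the knockdown change differed between the strains was tested in all 12 libraries with an interaction term. By limma 0 of 10 members passed, against 0.00747% of 13383 genes (the target alone), and 0 members and 156 genes had an unadjusted p under 0.05. The TU3401 change minus the N2 change was largest for *elo-5*, at 0.34 (log2, 95% interval −0.32 to 1.00), and smallest for *fat-5*, at 0.04 (−0.89 to 0.98). Neither onset nor tissue of the knockdown can be read from this difference, since both differ with the strain. No gene of the 5 pathway lists passed in either knockdown. Of the genes first in their lists by limma in N2, *elo-6* had a log2 fold change of −0.20, *let-767* −0.07, *acs-1* −0.25, *nhr-80* −0.49 and *cyp-33E2* 0.14. In TU3401 the corresponding values were −0.25 for *elo-9*, 0.11 for *acly-2*, −0.06 for *bcat-1*, −0.12 for *nhr-13* and 0.17 for *cyp-33E2*. For the difference between strains the first genes were *elo-8* at −0.64, *cytb-5.2* at −0.16, *dld-1* at 0.07, *nhr-80* at 0.41 and *emb-8* at 0.06. All of these had an adjusted p of 1.00 from limma.

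The genes with the most similar pattern over the 12 libraries were found by the root mean square difference of log2(TPM + 1), each gene centred on its own mean, among 9144 genes of at least 5 TPM on average. This is a description, with the step between N2 and TU3401 part of every pattern. The gene closest to *elo-2* was *elo-5* (0.13) and the gene closest to *elo-5* was *elo-6* (0.11), while their own spread about the mean was 1.71 and 1.66. *elo-5* stood at 89.2% ± 2.21 of the level of its neighbour *elo-6* in N2 EV, 90.4% ± 4.75 in TU3401 EV and 87.1% ± 2.33 in the TU3401 knockdown (SD, n = 3 each). In the N2 knockdown the ratio was 88.9%, 70.8% and 75.5%, with replicates 2 and 3 below all N2 EV libraries. *elo-1* was closest to *art-1* (0.07), a trans-2-enoyl-CoA reductase gene that serves the last step of elongation. *fat-7* was closest to the glucuronosyltransferase gene *ugt-62* (0.36), with *elo-5* next.

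The desaturases were each closest to a gene outside the family. *fat-5* was closest to the semaphorin gene *mab-20* (0.21) and *fat-2* to the nuclease gene *nuc-1* (0.10). *fat-6* was closest to *hpo-15* (0.13), *fat-3* to *B0281.3* (0.14), *fat-1* to *C37H5.13* (0.07) and *fat-4* to *sdz-27* (0.07). For *fat-1* and *fat-4* the own spread was only 0.17 and 0.14, so that many genes with flat profiles lie close. The member most like *fat-5* was *fat-1*, at 1.20 and rank 5138 of 9144, so *fat-5* had no close counterpart among the members. The chromosomal neighbours *fat-3* and *fat-4* were not closest to each other. *fat-3* stood at 45.7% ± 3.92 of *fat-4* in N2 EV and 76.2% ± 15.7 in TU3401 EV (SD, n = 3), with TU3401 EV replicate 3 at 94.3% and the other 2 libraries at 67.5% and 66.8%.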

How the data were processed

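RNA of whole worms was measured in 12 libraries, 4 groups of 3. The submitters' processing notes name FastQC 0.11.9, MultiQC 1.12, Trimmomatic 0.36, HISAT2 2.2.1 and featureCounts 1.6.2, and the genome build is not given in the sources used here. The authors deposited FPKM and a signal that they label TPM, equal to FPKM times 1 factor per library (1.39 in N2 EV replicate 2, 1.21 in TU3401 EV replicate 3, 1.70 to 1.93 elsewhere), so TPM was used. Names and positions came from Ensembl release 115 of WBcel235, with 46817 of 46904 genes found.

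Each comparison was fitted with limma 3.58.1 (R 4.3.3, mean-variance trend) on log2(TPM + 1), a scale that understates changes of low genes, over genes with a mean of 1 TPM or more in its 6 libraries. An adjusted p (Benjamini-Hochberg over all genes) under 0.05 passed. The members, marker and pathway lists and the rule for named genes (all members, the closest gene to each, and of each pathway list the gene with the smallest p in each comparison and those past the test) were chosen with earlier results of these data known. *elo-3*, *mdt-15*, *fasn-1* and single markers were named after their values were seen, and only examples of the called genes are given. No promoter or protein sequence was used. Alternatives were FPKM, pseudocounts of 0.1 and 5, no filter or 5 TPM, median-of-ratios scaling, no trend, all 12 libraries, a replicate block and leaving out each library. Python 3.11.15, numpy 2.4.6, pandas 2.3.3 and matplotlib 3.10.9 were used.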

Additional observations from a re-analysis of the deposited data

How the results depend on the processing

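Depth in reads is unknown, so no counting error can be given, and *fat-7* in N2 lies near 1 TPM. By limma, the number of genes past the test rose without a filter on low values to 2 in the N2 knockdown, 6 in the TU3401 knockdown and 10 for the difference between strains, which fell to 0 with FPKM. Leaving out each library in turn gave 1 to 33 genes in N2 (33 without knockdown replicate 1, 2 without N2 EV replicate 3), 0 to 1 in TU3401 (1 without EV replicate 3 or knockdown replicate 3) and 1 to 2 for the difference (2 without TU3401 knockdown replicate 3). The number of members past the test in N2 was then 0 to 1, and the number 2-fold apart 0 to 1 (*fat-7*), also 1 at a threshold of 1.5-fold.

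Members far below the threshold changed sign when single libraries were left out. In N2 the log2 fold change ran from −0.29 to 0.086 for *fat-5*, −0.50 to 0.011 for *fat-2* and −0.18 to 0.0049 for *fat-4*. In TU3401 it ran from −0.35 to 0.39 for *fat-5*, −0.35 to 0.18 for *fat-6*, −0.51 to 0.61 for *fat-7*, −0.15 to 0.21 for *fat-2*, −0.095 to 0.086 for *fat-1*, −0.20 to 0.15 for *fat-3*, −0.042 to 0.15 for *fat-4*, −0.076 to 0.11 for *elo-1*, −0.42 to 0.10 for *elo-2* and −0.28 to 0.21 for *elo-5*. With a pseudocount of 5, *fat-5* was at 0.011 there, and with FPKM *fat-2* was at −0.14, *fat-4* at −0.10 and *elo-1* at −0.13. Between the EV groups, *fat-4* ran from −0.016 to 0.095, *fat-2* turned to 0.067 with FPKM and 0.45 with median-of-ratios scaling, and *fat-1* to 0.28 with that scaling. There, 8 members passed in the main comparison, 10 with that scaling, and 7 with FPKM, with no filter and without TU3401 EV replicate 1, in each case all but *fat-1* of the 8. The cause was not tested.

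The deviations of samples with the same replicate number correlated at −0.44, 0.04 and −0.41 in N2. In TU3401 pairs 2 and 3 correlated at 0.44 and 0.42, above the pairs of different numbers (−0.49 to 0.23), and pair 1 at 0.05. The correlations were not all over 0.1 in either strain, so the numbers are not taken as pairs. The column names of the deposited table carry the same numbers in EV and knockdown of each strain, which may mark matched collections. With a replicate block, limma gave 1 gene in N2, 0 in TU3401, 11844 between the EV groups and 1 for the difference, and the members called were unchanged. In the TU3401 knockdown the block lowered the SE of every member, from 0.18 to 0.08 for *fat-2* and from 0.32 to 0.26 for *fat-5*. In the N2 knockdown the SE rose for some members and fell for others.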
